A study of Homo sapiens with 6 samples.

Results

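YAP1, WWTR1, TEAD1, TEAD2, TEAD3, TEAD4, CTGF, CYR61, AMOTL2 and LATS2 were examined as the transcriptional output arm of the Hippo pathway in Ewing sarcoma cells. They were taken by symbol from the deposited expression table, in which all 10 symbols were found once each among 27420 genes. A673 and SKNMC, cell lines long established from Ewing sarcoma, were each kept for 6 h in the vehicle DMSO, in 50 nM THZ1 or in 200 nM THZ1, a covalent inhibitor of the transcription kinase CDK7. Each of the 6 conditions is 1 library, so there is no replicate spread to judge a difference by and nothing was tested. The deposited table calls its values averages without saying of what, so a column may be 1 library or a mean of runs not listed. Each library is bulk RNA of 1 line, in which fewer cells of a kind and less RNA per cell cannot be told apart. The values are FPKM, a fragment count scaled to transcript length and library size, so a level per length and relative to its own library.

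In the Hippo pathway the kinases MST1 and MST2 activate LATS1 and LATS2, which phosphorylate the coactivators YAP (gene YAP1) and TAZ (gene WWTR1) and keep them out of the nucleus. YAP and TAZ do not bind DNA themselves and reach their target genes through the DNA-binding TEAD factors. CTGF and CYR61 encode secreted matrix-associated proteins of the CCN family and are widely used readouts of this activity. AMOTL2, an angiomotin that binds YAP, and LATS2, a YAP and TAZ kinase, are targets that also act back on the pathway.

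The libraries held similar sums of listed FPKM, from 451872 to 462997, and the absolute depth is not known from FPKM. The most frequent ratio between low values put the THZ1 libraries at roughly 88.9% to 96.6% of the depth of the DMSO library of their line, but it was shared by no more than 1.61% of low genes. All 5 Ewing sarcoma markers looked at were present with DMSO, with NKX2-2 the lowest in A673 at 14.8 FPKM. FLI1, the ETS part of the Ewing sarcoma fusion, was at 31.5 and 27.3 FPKM in A673 and SKNMC with DMSO and at 4.26 and 4.56 FPKM at 200 nM THZ1, and its part in the results was not tested. Of the markers of other cell types, CD3E, CDH5, EPCAM and CDH1 were at most at 0.826 FPKM in any library and PECAM1 was not matched. PTPRC, a leukocyte gene, was at 7.90 to 13.1 FPKM in the SKNMC libraries and at most at 0.0291 FPKM in the A673 libraries, and its part in the differences between the lines was not tested.

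The hexamer GGAATG is the core sequence that TEAD factors are known to bind, and it was searched on both strands (GGAATG or CATTCC) in the 250 bases before each annotated start. It begins with GGAA, the core of ETS factors such as FLI1, so the letters alone do not separate the families. RefSeq promoter sequences (GRCh38.p14) were found for 7 of the 10 genes; CYR61, TEAD1 and TEAD4 had no entry. CTGF held 3 matches, at 169 to 164, 104 to 99 and 95 to 90 bases before its start. YAP1 held 1 match, and AMOTL2 held 1 in 1 of its 2 windows and 0 in the other. The windows of WWTR1, TEAD2, TEAD3 and LATS2 held 0. At least 1 match was present in 11.9% of all 35116 windows and at least 3 in 0.0826% of them (29 windows). The whole CTGF window is shown because it is the gene whose response differed most between the lines. A 30-base stretch around the match is shown for AMOTL2, which was lower in both lines, and for YAP1, whose level as deposited stayed near that with DMSO. Matches are in capitals, and positions are those of an exact match in hg19 (CTGF chr6:132272513-132272762, minus strand; AMOTL2 chr3:134093341-134093370, minus strand, at a start where longer AMOTL2 transcripts also run; YAP1 chr11:101981004-101981033, plus strand).
CTGF: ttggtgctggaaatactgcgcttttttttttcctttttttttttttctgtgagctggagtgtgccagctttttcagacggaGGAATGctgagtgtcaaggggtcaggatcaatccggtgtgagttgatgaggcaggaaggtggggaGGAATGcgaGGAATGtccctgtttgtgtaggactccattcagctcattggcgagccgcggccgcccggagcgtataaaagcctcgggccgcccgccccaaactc
AMOTL2: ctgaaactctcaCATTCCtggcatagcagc
YAP1: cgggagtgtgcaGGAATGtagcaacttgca

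With DMSO, the 2 lines differed most in CTGF and CYR61. CTGF was at 241 FPKM in A673 and 7.23 FPKM in SKNMC, 33.4-fold higher in A673, and CYR61 was at 191 and 28.7 FPKM, 6.65-fold higher. By level, CTGF ranked at 268 and CYR61 at 370 of the listed genes in A673, against 8048 and 3151 in SKNMC. AMOTL2 was at 50.6 and 14.2 FPKM, and LATS2 at 12.9 and 6.14 FPKM. Upstream of the targets, YAP1 was at 58.9 FPKM in A673 and 17.8 FPKM in SKNMC, and WWTR1 at 35.4 and 19.5 FPKM. YAP1 therefore held 62.5% of the summed FPKM of both genes in A673 and 47.7% in SKNMC. Without replicates, the close levels of YAP1 and WWTR1 in SKNMC cannot be said to differ.

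The TEAD genes were at closer levels in the 2 lines, with summed FPKM of 117 in A673 and 124 in SKNMC. TEAD2 was the most abundant in both, at 42.7 and 59.5 FPKM, followed by TEAD1 at 33.3 and 39.6 FPKM. TEAD4 was at 31.7 FPKM in A673 and 18.1 FPKM in SKNMC, and TEAD3 was the lowest at 9.23 and 6.98 FPKM. Without replicates, neighbours in these orders cannot be said to differ.

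Changes are given as log2 ratios after adding 1 FPKM, and a gene was counted as higher or lower at 2-fold or more. Between the DMSO libraries, CTGF (4.88 on this log2 scale), CYR61 (2.69), AMOTL2 (1.77) and YAP1 (1.67) were at least 2-fold higher in A673 and 0 of the 10 genes were lower. Of 12399 genes above 1 FPKM in at least 1 of the DMSO libraries, 8.42% were at least 2-fold higher in A673 and 15.0% lower. The median difference of the 10 genes was 0.90, against -0.11 for all of these genes. Scaling on the median ribosomal protein gene of each library turned the split of all genes from 1044 higher and 1865 lower to 2407 higher and 1256 lower, with 7 of the 10 genes then higher. Under that division TEAD1 and TEAD2, which were lower in A673 by 0.25 and 0.47 as deposited (log2 of -0.25 and -0.47), came out at 0.25 and 0.03. CTGF was higher in A673 than 99.9% of the genes on this scale, and CYR61 than 99.0%.

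**Figure D1:**
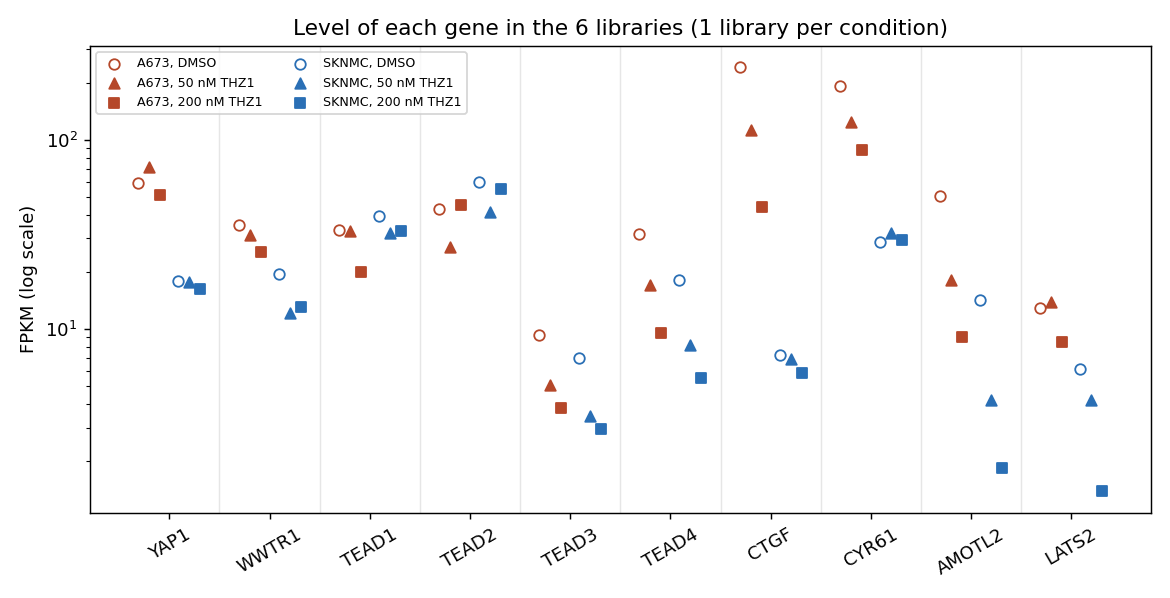
FPKM on a log axis for each of the 10 genes, with A673 in red and SKNMC in blue, open circles for DMSO, triangles for 50 nM THZ1 and squares for 200 nM THZ1, 1 library per symbol. CTGF in A673 steps down from 241 to 43.8 FPKM while in SKNMC it stays between 5.86 and 7.23 FPKM, and AMOTL2 steps down in both lines.

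CTGF, in A673, had 241 FPKM in vehicle, 113 FPKM after 50 nM THZ1 and 43.8 FPKM after 200 nM. These are log2 differences of -1.09 and -2.43, and only 1.52% of the genes active in A673 had a lower value at 200 nM. In SKNMC the same gene was at 7.23, 6.95 and 5.86 FPKM, log2 differences of -0.05 and -0.26. The A673 libraries therefore lay well apart in order of dose, whereas the 3 SKNMC libraries were close together. After 200 nM THZ1 the A673 level was still above every SKNMC level. With the 75th percentile of active genes as the divisor of each library, CTGF in SKNMC came out higher than with DMSO, by 0.21 and 0.23, so that no direction can be given there.

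CYR61 in A673 was at 191, 124 and 87.8 FPKM with DMSO, 50 nM and 200 nM THZ1, log2 differences of -0.62 and -1.11. With division by the 75th percentile the value at 200 nM in A673 was -0.74, under 2-fold. In SKNMC CYR61 was at 28.7, 31.9 and 29.3 FPKM, log2 differences of 0.15 and 0.03. CTGF and CYR61 lie on different chromosomes (hg19 chr6:132269316-132272513 and chr1:86046444-86049645) and have the shortest spans of the 10 genes, 3.20 kb each. The ratio of CTGF to CYR61 in A673 was 1.26 with DMSO, 0.908 at 50 nM and 0.499 at 200 nM, so the share of the DMSO level that was left was smaller for CTGF (18.2% at 200 nM) than for CYR61 (46.0%). In SKNMC the ratio was 0.252, 0.218 and 0.200.

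AMOTL2 was lower in both lines, by a similar amount on the log2 scale with 1 FPKM added. In A673 it was at 50.6 FPKM with DMSO, 18.2 FPKM at 50 nM and 9.05 FPKM at 200 nM THZ1, leaving 35.9% and 17.9% of the DMSO level. In SKNMC it was at 14.2, 4.20 and 1.84 FPKM, leaving 29.6% and 13.0%. The log2 differences were -1.43 and -2.36 in A673 and -1.55 and -2.42 in SKNMC. With a pseudocount of 0.1 they were -1.47 and -2.47 in A673 and -1.73 and -2.88 in SKNMC, so the loss was then larger in SKNMC. Only 1.90% of the active genes in A673 and 1.13% in SKNMC had a lower value at 200 nM, and no rescaling changed the direction.

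LATS2 in A673 was at 12.9 FPKM with DMSO, 13.8 FPKM at 50 nM and 8.53 FPKM at 200 nM THZ1, log2 differences of 0.09 and -0.55. In SKNMC it was at 6.14, 4.18 and 1.38 FPKM, log2 differences of -0.46 and -1.58. It thus had the opposite order to CTGF and CYR61, with the larger difference in SKNMC. The value at 50 nM in A673 became -0.15 with scaling on the ribosomal protein genes.

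**Figure D2:**
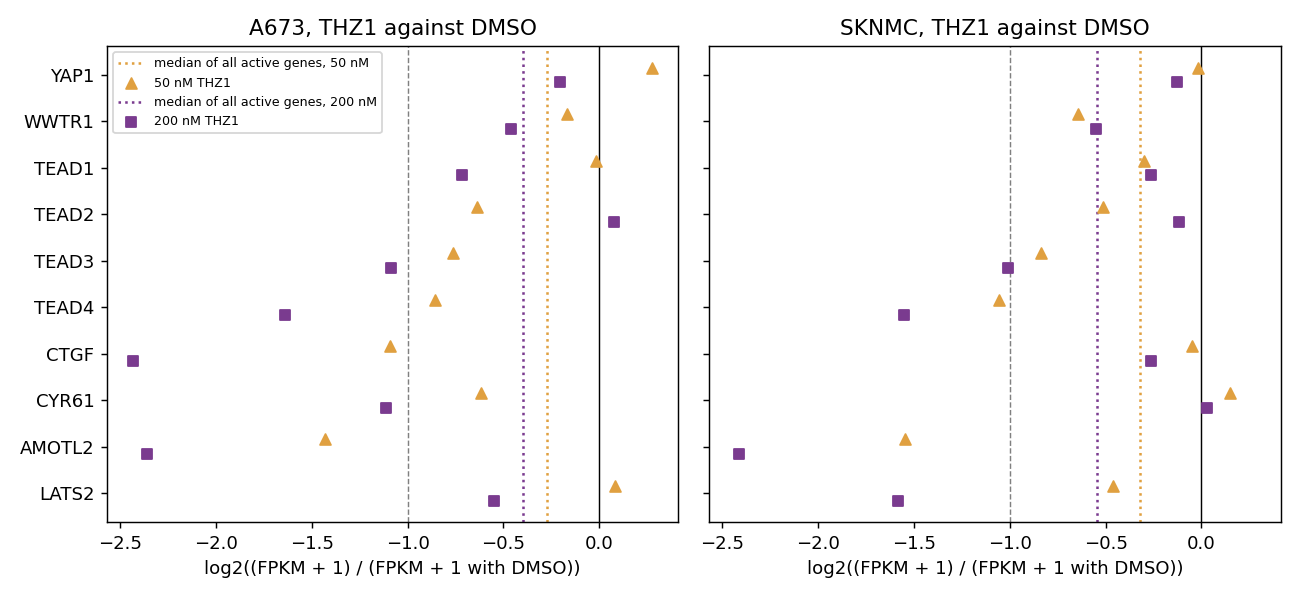
Log2 ratio of FPKM + 1 with THZ1 over DMSO for each of the 10 genes in A673 (left) and SKNMC (right), with triangles for 50 nM and squares for 200 nM. Dotted lines are the medians of all active genes at each dose (-0.27 and -0.40 in A673, -0.32 and -0.55 in SKNMC) and the dashed line marks 2-fold lower. AMOTL2, TEAD3 and TEAD4 lie left of the medians at both doses in both lines, CTGF and CYR61 do so in A673 alone and LATS2 in SKNMC alone. WWTR1 in SKNMC lies left at 50 nM and at the median at 200 nM. In A673, WWTR1, TEAD1 and LATS2 lie left at 200 nM alone, and TEAD2 lies left at 50 nM alone in both lines.

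As deposited, YAP1 lay within 0.28 of its DMSO level on the log2 scale in all THZ1 libraries, while WWTR1 had a lower log2 difference in SKNMC than CTGF and CYR61 at both doses. YAP1 in A673 was at 58.9, 71.7 and 51.0 FPKM with DMSO, 50 nM and 200 nM THZ1, and in SKNMC at 17.8, 17.6 and 16.2 FPKM. Its log2 differences were 0.28 and -0.20 in A673 and -0.02 and -0.13 in SKNMC. With division by the 75th percentile the first came out at 0.53 and the last 3 above 0. With scaling on the ribosomal protein genes the values in the same order were 0.03, -0.61, -0.37 and -0.66. At 50 nM in A673, 90.3% of the active genes had a lower value than YAP1. WWTR1 was at 35.4, 31.4 and 25.4 FPKM in A673 (-0.17 and -0.46) and at 19.5, 12.2 and 13.0 FPKM in SKNMC (-0.64 and -0.55), with the value at 50 nM in A673 at 0.08 after division by the 75th percentile. YAP1 made up 69.5% and 66.7% of the summed FPKM of the pair in A673 with THZ1, and 59.1% and 55.4% in SKNMC, so it had the larger value in every THZ1 library. Without replicates, the close levels of the pair in SKNMC with THZ1 cannot be said to differ.

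The TEAD genes did not move as a block. TEAD4 was lower with THZ1 in both lines, at 31.7, 17.0 and 9.48 FPKM in A673 and 18.1, 8.21 and 5.52 FPKM in SKNMC. Its log2 differences were -0.86 and -1.64 in A673 and -1.05 and -1.55 in SKNMC. TEAD3 was lower in both as well, at 9.23, 5.03 and 3.82 FPKM in A673 (-0.76 and -1.09) and 6.98, 3.46 and 2.96 FPKM in SKNMC (-0.84 and -1.01). No rescaling changed the direction of either gene against DMSO, but TEAD3 at 200 nM in SKNMC was so near 2-fold that a common sum of the libraries put it at -0.98. With division by the 75th percentile TEAD3 at 200 nM was at -0.76 in A673 and -0.56 in SKNMC, under 2-fold in both lines.

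TEAD2 had its lowest level at the lower dose in both lines. It was at 42.7, 27.2 and 45.2 FPKM in A673 and at 59.5, 41.4 and 54.8 FPKM in SKNMC with DMSO, 50 nM and 200 nM THZ1. Between the doses it was higher at 200 nM by 0.71 in A673 and 0.39 in SKNMC, above 99.1% and 90.4% of the active genes in that comparison. Against DMSO its value at 200 nM in A673 was 0.08, or -0.32 with scaling on the ribosomal protein genes, and in SKNMC -0.12, or 0.44 after division by the 75th percentile. TEAD2 (hg19 chr19:49843852-49865714) overlaps CD37 and DKKL1 on the other strand and a lincRNA gene on its own, and whether reads were assigned by strand is not given in the sources used here. TEAD1 was at 33.3, 32.9 and 19.8 FPKM in A673 and at 39.6, 32.0 and 32.9 FPKM in SKNMC, log2 differences of -0.02 and -0.72 and of -0.30 and -0.26. TEAD1 in A673 at 50 nM and in SKNMC at 200 nM had the other sign after division by the 75th percentile.

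The makeup of the TEAD pool was therefore different after THZ1. The summed TEAD level was 82.1 and 78.3 FPKM in A673 at 50 nM and 200 nM and 85.1 and 96.2 FPKM in SKNMC. TEAD4 held 27.1%, 20.7% and 12.1% of it in A673 in order of dose. In SKNMC its share was 14.6%, 9.65% and 5.74%. TEAD2 held 36.6%, 33.1% and 57.7% in A673 and 47.9%, 48.7% and 57.0% in SKNMC, so that it was above every other TEAD gene at 200 nM in both lines. TEAD1 was the most abundant TEAD gene in 1 library alone, A673 at 50 nM, with 40.1% of the sum. A share within a library does not depend on how the libraries are scaled.

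**Figure D3:**
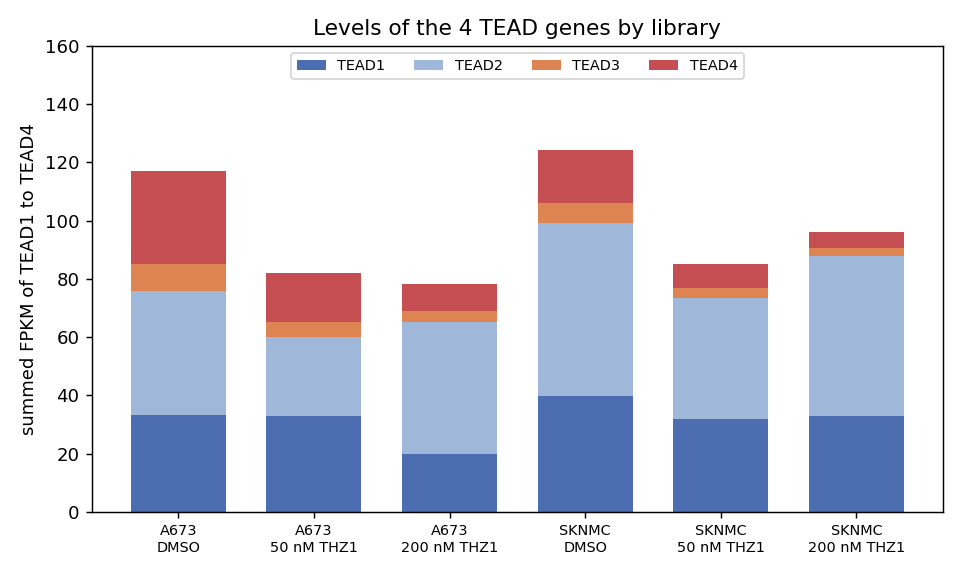
Stacked FPKM of TEAD1 to TEAD4 in the 6 libraries, 1 bar per library. The TEAD4 part (red) narrows with dose from 27.1% to 12.1% of the sum in A673 and from 14.6% to 5.74% in SKNMC, and TEAD2 (light blue) takes over 50% of the bar at 200 nM in both.

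Against DMSO, at least 2-fold lower were CTGF and AMOTL2 at 50 nM in A673 (2 of the 10 genes), where 15.9% of 11077 active genes, those above 1 FPKM with DMSO, were lower. At 200 nM these 2 genes were joined by CYR61, TEAD3 and TEAD4 (5 of 10, against 25.3% of active genes). In SKNMC, AMOTL2 and TEAD4 were lower at 50 nM (2 of 10, against 15.8% of 11896 active genes), and AMOTL2, TEAD3, TEAD4 and LATS2 at 200 nM (4 of 10, against 27.3%). None of the 10 genes was 2-fold higher in any of these comparisons, as for nearly all active genes: 0.343% and 0.126% were higher in A673 at 50 nM and 200 nM, and 0.471% and 0.462% in SKNMC. The median log2 difference of the 10 genes was -0.63 and -0.90 in A673, against -0.27 and -0.40 for all active genes. In SKNMC it was -0.49 and -0.41, against -0.32 and -0.55. At 200 nM in SKNMC the median of the 10 genes became 0.11 with division by the 75th percentile, which changed the count of all genes from 3244 lower and 55 higher to 1547 lower and 503 higher. With 10 genes, 1 gene is 10% of the set, so these counts are coarse, and the 5 of 10 at 200 nM in A673 became 3 against 16.1% of active genes with division by the 75th percentile.

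From 50 nM to 200 nM in A673, 1 of the 10 genes was at least 2-fold lower, CTGF at -1.34, against 7.44% of active genes, and AMOTL2 was at -0.93. All of the 10 except TEAD2 were lower at the higher dose in A673, as were 51.7% of active genes. The median of the 10 was -0.57 against -0.02 for all active genes, and 0.117% of active genes were 2-fold higher. In SKNMC, LATS2 was the 1 gene that was 2-fold lower at 200 nM than at 50 nM, at -1.12, against 8.39% of active genes, and 0.370% were higher. The SKNMC median of -0.15 was close to the -0.14 of all active genes. Division by the 75th percentile changed the SKNMC counts of all genes from 998 lower and 44 higher to 578 lower and 204 higher, and LATS2 was then under 2-fold.

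The 2 lines have separate DMSO libraries, so their responses can be set side by side without a shared control. Among 10574 genes active in both lines, 11.4% were at least 2-fold lower in both at 50 nM and 20.4% at 200 nM. Of the 10 genes as deposited, AMOTL2 was lower in both at 50 nM, and AMOTL2, TEAD3 and TEAD4 at 200 nM. With 1 FPKM added, the response of AMOTL2 in A673 minus that in SKNMC was 0.12 at 50 nM and 0.06 at 200 nM. For TEAD3 and TEAD4 it lay between -0.09 and 0.20. With a pseudocount of 0.1, AMOTL2 at 200 nM was at -2.47 in A673 and -2.88 in SKNMC, so its near equality depends on that setting. For CTGF the difference between the responses, with 1 FPKM added, was -1.04 at 50 nM and -2.17 at 200 nM. A lower one was held by 0.407% and 0.0378% of the genes active in both lines. For CYR61 it was -0.76 and -1.14, with 1.48% and 0.615% of genes lower. LATS2 lay at the other end, with 0.55 and 1.03, above 95.1% and 98.6% of the genes. These places among genes describe 2 pairs of libraries and are no test, since the genes are not replicates.

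**Figure D4:**
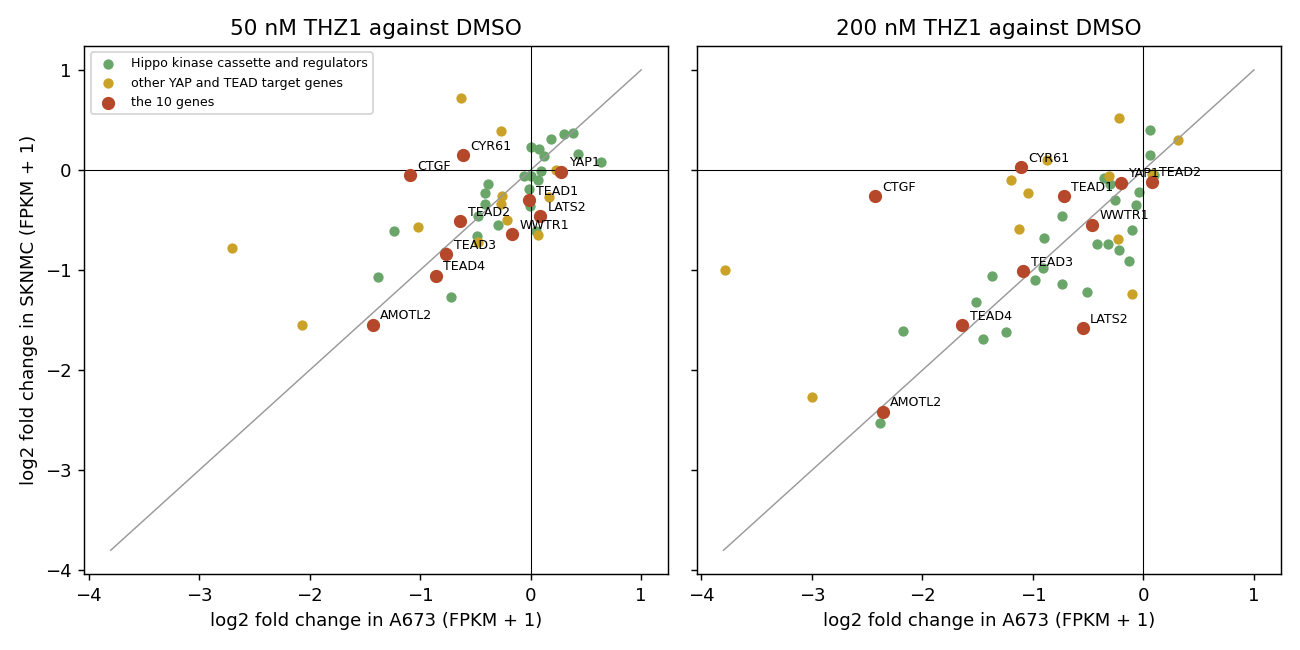
Log2 ratio of FPKM + 1 with THZ1 over DMSO in A673 (x axis) against SKNMC (y axis) at 50 nM (left) and 200 nM (right), 1 point for each of the 10 genes and of the listed pathway genes active in both lines. Red points are the 10 genes, green points Hippo kinases and regulators, yellow points other YAP and TEAD targets, and the grey line marks equal responses; AMOTL2, TEAD3 and TEAD4 lie near it and CTGF lies far above it at 200 nM (-2.43 against -0.26).

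Other YAP and TEAD targets were taken from a list of 18 genes, all found in the table, of which 14 were active in A673 and 15 in SKNMC. In A673, 3 of 14 were at least 2-fold lower at 50 nM and 5 of 14 at 200 nM, and in SKNMC 1 of 15 and 3 of 15. The shares of all active genes were 15.9% and 25.3% in A673 and 15.8% and 27.3% in SKNMC, so the SKNMC counts were below those shares. None was 2-fold higher, and the median of the list was -0.27 and -0.53 in A673 and -0.34 and -0.23 in SKNMC, against -0.27, -0.40, -0.32 and -0.55 for all active genes. FJX1, the human relative of the fly kinase four-jointed, passed 2-fold in all 4 comparisons. It was at 72.0, 16.4 and 8.13 FPKM in A673 and 8.68, 2.31 and 1.02 FPKM in SKNMC, log2 differences of -2.07, -3.0, -1.55 and -2.26. ANKRD1, an ankyrin-repeat protein and a common YAP readout, is named here after its values were seen. It was at 23.7, 2.79 and 0.787 FPKM in A673, and 0% of the active genes had a lower log2 difference than its -3.79 at 200 nM. In SKNMC it was at 1.08, 0.216 and 0.0442 FPKM, too low for a ratio after adding 1 FPKM to carry the size of the change.

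Between the DMSO libraries, 8 of the 16 listed targets above 1 FPKM in at least 1 line were 2-fold higher in A673, where 8.42% of all genes were, and IGFBP3 and FOXF2 were lower, where 15.0% of all genes were. Scaling on the ribosomal protein genes raised the share of all genes that were higher to 19.4%. FJX1 was 2.91 higher on the log2 scale and ANKRD1 3.57. The list had a median of 0.97, against -0.11 for all genes. AXL, a receptor tyrosine kinase gene named after its values were seen, was at a low level in both lines, at 2.20 and 1.77 FPKM, so not every target on the list had the pattern of CTGF. The other CCN family genes NOV, WISP1, WISP2 and WISP3 were under 1 FPKM in all 6 libraries, which leaves CTGF and CYR61 as the CCN genes measured at an appreciable level.

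Of 27 Hippo kinases, scaffolds and regulators, all were found and 25 were active in each line. PTPN14 is on this list and on that of the other targets, so it is counted in both. At 50 nM THZ1, 2 of 25 were at least 2-fold lower in A673 (AJUBA and TAOK3) and 2 of 25 in SKNMC (AJUBA and FRMD6). Among all active genes it was 15.9% and 15.8%. At 200 nM it was 6 of 25 in A673 and 9 of 25 in SKNMC, against 25.3% and 27.3% of active genes, with medians of -0.42 and -0.74 against -0.40 and -0.55. AJUBA, a LIM-domain protein that binds and inhibits LATS kinases, passed 2-fold in all 4 comparisons, at 35.4, 13.0 and 7.07 FPKM in A673 and 8.83, 3.69 and 2.23 FPKM in SKNMC.

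Within the kinase cassette the members differed, and those named here were chosen after their values were seen. LATS1 was at 11.5, 12.6 and 3.39 FPKM in A673 and at 10.9, 12.1 and 3.76 FPKM in SKNMC, so it was lower at 200 nM alone. SAV1, the scaffold of the MST kinases, was at 18.6, 10.5 and 6.17 FPKM in A673 and 18.7, 10.1 and 5.09 FPKM in SKNMC. FRMD6, an upstream activator of the cassette, was at 24.2, 14.3 and 3.84 FPKM in A673 and 32.3, 12.9 and 4.77 FPKM in SKNMC. The MST2 gene STK3 stayed near its DMSO level at 15.5, 16.6 and 12.4 FPKM in A673 and 12.0, 11.9 and 10.9 FPKM in SKNMC. MOB1A, the LATS cofactor, was at 50.2, 67.6 and 48.7 FPKM in A673 and in SKNMC at 60.0, 67.0 and 51.2 FPKM, and its log2 difference of 0.42 at 50 nM in A673 was above those of 95.7% of active genes. Both kinases LATS1 and LATS2 were thus below their DMSO levels at 200 nM in both lines, as were 70.4% of active genes in A673 and 80.8% in SKNMC. For LATS2 in A673, 42.7% of active genes had a lower log2 difference.

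Genes with a course like that of YAP1 or CYR61 over the 6 libraries were looked for among 10567 other genes that were active in A673 as well as in SKNMC and at 0 in none of the libraries. The measure was the root-mean-square difference of log2(FPKM + 1), each gene centred on its own mean. Closest to YAP1 were GAB2, an adaptor of receptor signalling, at 0.107, ACTN1, an actin crosslinker, at 0.118 and CALD1, an actin-binding regulator of contraction, at 0.120. ACTN1 was at 76.8, 82.0 and 72.5 FPKM in A673 and 26.4, 24.5 and 20.4 FPKM in SKNMC. Closest to CYR61 were IQCJ-SCHIP1 at 0.185, TTC9 at 0.201 and PI15 at 0.206, and all of these were near or under 1 FPKM in SKNMC. There IQCJ-SCHIP1 was at 1.01, 1.02 and 0.621 FPKM in order of dose. TTC9 was at 1.04, 0.540 and 0.351 FPKM and PI15 at 1.07, 0.436 and 0.548 FPKM. Adding 1 FPKM flattens such low values, so these genes cannot be said to share the course of CYR61 in SKNMC. IQCJ-SCHIP1 is a readthrough gene that shares exons with a neighbour, so its level is uncertain. The 6 libraries come from 2 lines, and the difference between the lines is part of this measure.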

How the data were processed

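TruSeq libraries were read in 100-bp pairs (HiSeq2000). The authors mapped the reads with STAR (hg19) and deposited FPKM per Ensembl 75 gene, estimated with StringTie per the paper and listed beside Cufflinks in the submitters' notes; versions are not given in the sources used here. The file also holds the authors' own log2 fold changes, which were not used. Groups came from the sample titles, with 1 library per condition. Levels were compared as log2(FPKM + 1), which understates changes of low genes; active genes were above 1 FPKM with DMSO in the line. No test was run. Within a line no spread can be estimated, and a fit over both lines with line as a block was not made. Fold changes and counts were computed in Python 3.11.15 with pandas 2.3.3 and tested on simulated data. Starts in the table lie 1 base before GENCODE 44 starts (14261 of 26108 matched genes, against 416 with equal starts), so 1 was added. The genes and lists were chosen with earlier results of these data known. The named genes were the 10 genes, listed pathway genes at 2-fold in 1 direction in all 4 THZ1 comparisons against DMSO (at most 6), and the 3 closest in course to YAP1 and to CYR61; others are said to be chosen later. Alternatives were a pseudocount of 0.1, no filter, a 1.5-fold threshold, a common sum, division by the 75th percentile of active genes and division by the median of 79 ribosomal protein genes. The last 2 moved the median of all active genes against DMSO by 0.22 to 0.48 and by -0.23 to -0.45 on the log2 scale; ribosomal protein genes held 13.8% of listed FPKM in A673 and 19.2% in SKNMC with DMSO, and 18.0% and 30.0% at 200 nM.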

Additional observations from a re-analysis of the deposited data

Results flagged for a closer look

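CYR61 was lower at both THZ1 doses in A673 and higher at both in SKNMC. The log2 difference from DMSO in A673 minus that in SKNMC was -0.76 at 50 nM and -1.14 at 200 nM. With 1 library per condition, no test of this contrast between A673 and SKNMC could be made. The SKNMC values of 0.15 and 0.03 are small, and they were -0.22 and -0.52 with scaling on the ribosomal protein genes. With division by the 75th percentile they were 0.43 and 0.58, and those in A673 were -0.36 and -0.74.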

How the results depend on the processing

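With the 75th percentile of active genes as divisor, 1 of the 10 genes was at least 2-fold lower at 50 nM in A673 and 1 in SKNMC (2 each as deposited), 3 at 200 nM in A673 (5 as deposited) and 0 from 50 nM to 200 nM in SKNMC (1 as deposited). Of all active genes under that division, 10.1%, 9.67%, 16.1% and 4.86% were lower in these comparisons in the same order. With the median of the ribosomal protein genes as divisor, 4 were lower at 50 nM in A673, 2 from 50 nM to 200 nM in A673, and 7 were higher in A673 than in SKNMC with DMSO. Among all active genes with the ribosomal protein genes as divisor, 24.4% were lower at 50 nM in A673. From 50 nM to 200 nM in A673 10.5% were lower, and 19.4% were higher in A673 with DMSO. At 1.5-fold, 6 were lower at 50 nM in A673 and 4 in SKNMC, 5 were lower and 1 was higher from 50 nM to 200 nM in A673, 2 were lower in SKNMC, and 7 were higher in A673 than in SKNMC. The shares of all active genes at 1.5-fold were 31.8%, 33.5%, 18.0%, 2.33%, 22.1% and 17.6% in the same order. With a pseudocount of 0.1, 2 were lower from 50 nM to 200 nM in SKNMC, against 13.0% of active genes. The remaining counts stayed within 1.5 times. Among all active genes against DMSO (50 nM and 200 nM in A673, then in SKNMC), 1758, 2799, 1875 and 3244 were 2-fold lower as deposited, 1117, 1782, 1150 and 1547 with the 75th percentile, and 2699, 4358, 3234 and 5951 with the ribosomal protein genes. The median of the 10 genes from 50 nM to 200 nM in SKNMC became 0.10 with the 75th percentile. CTGF at 50 nM in A673 and TEAD4 at 50 nM in SKNMC were then at -0.84 and -0.79. Leaving out the filter could not change a count of the 10 genes, since all of them passed it in both lines. Using a common sum changed no count of the 10 genes by more than 1.5 times. Of the 70 single-gene values, 13 changed sign with the 75th percentile, 8 with the ribosomal protein genes and 1 with the common sum, and none of these was at or past 2-fold as deposited. No library could be left out, since each condition is 1 library. FPKM holds no counts, so no counting interval can be given for a gene, and an even loss of RNA in all genes would not be seen.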
